A study of Mus musculus with 9 samples.

Results

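The cytosolic chaperonin CCT (also called TRiC) is built from 8 subunits, and the arrays measured the transcript of each of them: Tcp1 (the alpha subunit), Cct2 (beta), Cct3 (gamma), Cct4 (delta), Cct5 (epsilon), Cct6a (zeta), Cct7 (eta) and Cct8 (theta). The 8 genes are among 18193 genes measured, and they carry 25 of the 45101 probe sets on the array, counting those annotated to 1 gene symbol. They were chosen by their measured log2 difference between CBFb_KD and Control, in which they were lower as a family, so their values in that knockdown are a description, and the limma calls and intervals given for them are no test of the family. In the other knockdown, of Ring1b, Cct2, Cct5 and Cct8 fell by 18.0%, 18.9% and 25.9% of the linear signal. The other subunits did not pass the test: Cct7, Cct6a and Tcp1 were 17.1%, 14.8% and 9.93% lower. Cct3 and Cct4 differed from Control by 1.25% and 5.36%. Leaving out Control array 3 left 0 of the 8 called.

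The cells were L8057, a mouse megakaryocytic leukaemia line, grown in 3 groups of 3 arrays each. Lentivirus carried an shRNA against CBFb, the partner that RUNX proteins share in core binding factor, in CBFb_KD, an shRNA against Ring1b (Rnf2), the E3 ligase of Polycomb repressive complex 1, in Ring1b_KD, and an empty vector in Control. All groups, Control included, were infected, received puromycin for selection 48 h afterwards together with TPA at 50 nM, a phorbol ester that drives these cells to mature, and were harvested 72 h after that, at 3 days of TPA. The series' design calls the arrays of a group biological replicates, and the labels do not say whether each was a separate infection, so a p-value is relative to the spread over these arrays, which may be technical. The groups are of 1 cell line, the labels do not state whether more than 1 hairpin was used per target, and the empty vector expresses no hairpin.

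CCT stacks a pair of rings, each holding 1 copy of every subunit in a fixed order, around a cavity that closes when ATP is hydrolysed. Actin and tubulin need it to reach their native fold, and so do many WD40-repeat proteins, among them G protein beta subunits and the activators of the anaphase-promoting complex. Prefoldin hands nascent actin and tubulin to the ring, and phosducin-like proteins bind it as co-chaperones. Maturing megakaryocytes depend on actin and on tubulin, since platelets are shed from long microtubule-filled extensions.

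Promoters are shown for the 3 subunits that passed the test in Ring1b_KD, Cct8, Cct2 and Cct5, and for Cct3, whose transcript differed least there, so that the letters can be set beside the values below. Each runs 5′ to 3′ from 250 bases before to 50 after the RefSeq start (GRCm38.p6), and capitals mark every match, on either strand, to 7 motifs. The GC box, GGGCGG, is bound by Sp1 and Krüppel-like factors. The CCAAT box is named by its letters and is bound by NF-Y. For ETS factors the letters searched were CCGGAAG. For the respiratory factor NRF1 they were the palindrome GCGCATGCGC. The E-box of MYC and USF was searched as CACGTG. RUNX proteins, which CBFb joins, were given by TGTGGT and also by its variant TGCGGT. The heat shock element was searched as GAANNTTC. No matches of different motifs overlapped in the promoters printed.
Cct8, chr16:87495820-87496119, minus strand: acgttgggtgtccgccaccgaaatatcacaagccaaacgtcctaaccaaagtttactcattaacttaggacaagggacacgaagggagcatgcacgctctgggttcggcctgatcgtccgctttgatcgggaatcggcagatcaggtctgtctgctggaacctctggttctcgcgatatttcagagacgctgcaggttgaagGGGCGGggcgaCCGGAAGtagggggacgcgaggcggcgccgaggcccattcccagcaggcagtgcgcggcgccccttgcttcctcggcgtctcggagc
Cct2, chr10:117063803-117064102, minus strand: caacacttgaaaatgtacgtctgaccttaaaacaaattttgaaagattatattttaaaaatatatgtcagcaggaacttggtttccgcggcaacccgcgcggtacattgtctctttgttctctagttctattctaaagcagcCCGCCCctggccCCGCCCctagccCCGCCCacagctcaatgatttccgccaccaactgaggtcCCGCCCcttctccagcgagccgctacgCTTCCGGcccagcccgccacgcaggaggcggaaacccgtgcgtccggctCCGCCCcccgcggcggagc
Cct5, chr15:31601797-31602096, minus strand: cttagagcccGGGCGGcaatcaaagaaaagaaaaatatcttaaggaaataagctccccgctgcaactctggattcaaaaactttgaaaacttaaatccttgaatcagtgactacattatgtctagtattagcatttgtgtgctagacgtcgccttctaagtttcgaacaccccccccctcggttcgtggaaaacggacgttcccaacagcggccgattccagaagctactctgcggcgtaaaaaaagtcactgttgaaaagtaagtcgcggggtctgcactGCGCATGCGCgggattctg
Cct3, chr3:88296885-88297184, plus strand: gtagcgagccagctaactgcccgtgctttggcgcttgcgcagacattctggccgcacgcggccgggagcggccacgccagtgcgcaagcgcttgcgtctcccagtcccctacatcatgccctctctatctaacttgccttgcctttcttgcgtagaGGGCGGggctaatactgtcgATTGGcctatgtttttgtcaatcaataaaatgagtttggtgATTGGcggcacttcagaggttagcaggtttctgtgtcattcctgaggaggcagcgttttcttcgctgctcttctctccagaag

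The RefSeq table gave a promoter for 7 of the 8 genes, all but Cct4, and 1 promoter of each of those 7 was searched. Cct2 and Cct5 had 2 entries each. For them only the entry at the start of the gene was searched, and the other may hold different matches. All 7 held at least 1 GC box, a match found in 35.7% of 32851 mouse promoters of the same length, and Cct2 held several. The CCAAT box was in 4 of the 7 (Tcp1, Cct3, Cct6a and Cct7), against 37.4% of all promoters. The ETS motif was in 3, Tcp1, Cct2 and Cct8, against 8.86%, and the NRF1 motif was in that of Cct5 alone among the 7, against 0.971%. RUNX letters were in the promoters of Tcp1 and Cct7, against 22.4%. In Cct7 that match ran directly into a GC box. Neither the E-box nor the heat shock element matched in any of the 7, where 7.15% and 7.86% of all promoters held them. Median GC content was 59.3% for the 7 and 52.7% for all. Of the motifs searched, the GC box was the one that Cct8, Cct2 and Cct5 had in common, and Cct3 held it too. A match is a description of the letters and no measurement of binding.

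**Figure D1:**
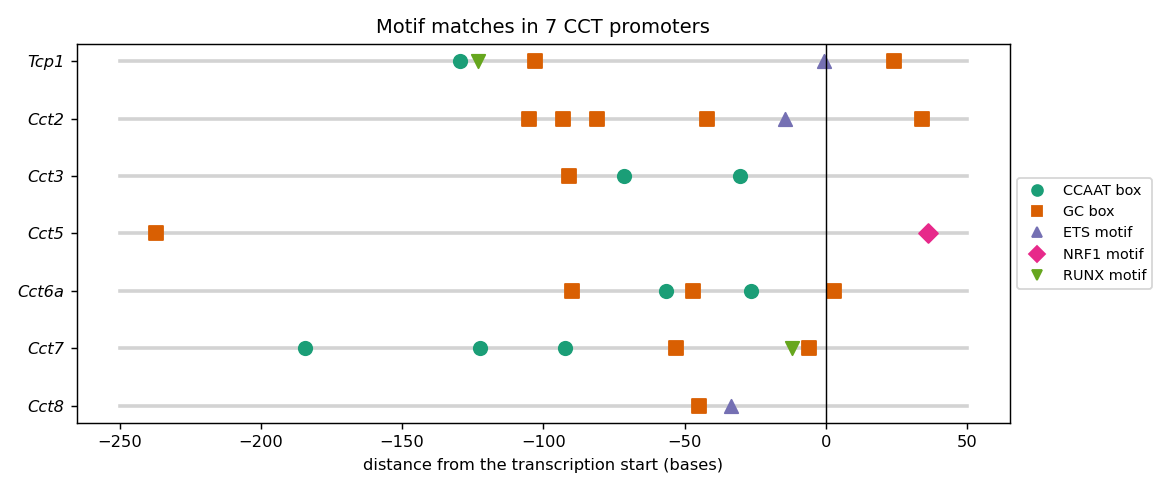
Positions of motif matches in the promoters of the 7 subunit genes with a RefSeq entry; the horizontal axis is the distance in bases from the transcript start, and each mark is 1 match on either strand. Every promoter has a GC box, and the ETS motif marks those of Tcp1, Cct2 and Cct8.

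The targeted transcripts followed the labels. The log2 signal of Cbfb was 12.36 ± 0.12 (SD, n = 3) in Control and 9.19 ± 0.11 in CBFb_KD, and that of Rnf2 was 10.65 ± 0.08 in Control and 8.98 ± 0.08 in Ring1b_KD. Array pairs within a group correlated at 0.995 to 0.997 over all genes. The deposited array medians ran from 6.51 to 6.65, and those of the Ring1b_KD arrays, from 6.61 up, were above all others, which quantile normalization evened out. Megakaryocyte and platelet markers, 11 measured of 13 listed, had a mean log2 level of 8.41 to 8.72 in the Control arrays, 9.22 to 9.35 in CBFb_KD and 8.23 to 8.70 in Ring1b_KD, against a median gene of 7.42. The mean level of erythroid markers ran from 7.76 to 7.86, 8.29 to 8.48 and 7.86 to 8.05 in the same order. Yet 5 of the 11 megakaryocyte markers and 3 of the 6 erythroid markers measured were below the median gene. Lymphoid and stromal markers ran from 6.45 to 6.65 over all arrays, granulocyte and monocyte markers from 7.01 to 7.36, and mast cell markers from 7.19 to 7.71. In Ring1b_KD, Vwf alone of the 11 megakaryocyte and platelet markers was called, and it was lower. Of 10 lymphoid markers, Cd8a was called higher in that knockdown. Of 9 granulocyte and monocyte markers, Ctsg was called lower in both knockdowns and Prtn3 higher in CBFb_KD. Of 7 mast cell markers, Ms4a2 was called lower in both knockdowns and Fcer1a higher in Ring1b_KD. Over the alternative settings described below, the granulocyte and monocyte count was 1 to 2 in CBFb_KD and 0 to 2 in Ring1b_KD. The mast cell count was 1 to 2 in CBFb_KD and 2 to 3 in Ring1b_KD. The megakaryocyte and lymphoid counts in Ring1b_KD were each 0 to 1. The levels of 3′ and 5′ probe sets differed by 0.0865 to 0.114 for Actb and by -0.0113 to 0.0521 for Gapdh (log2, group means).

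All 8 subunit transcripts were abundant: at the gene level, their mean signals lay between the 96.8th and the 99.3rd percentile of all genes. Near the top of the range a summary of probes can compress differences. In bulk RNA, fewer transcripts per cell and a changed mix of cells cannot be told apart.

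Ring1b_KD was the knockdown that the choice of members did not use, although its comparison shares the Control arrays with the one that it did. High readings in those Control arrays would lower both differences, so the counts that follow are not free of that choice. Relative to Control, 3 of the 8 genes fell (Cct2, Cct5 and Cct8; limma, two-sided, adjusted p under 0.05) and 0 rose, where 6.57% of all genes tested were called lower and 5.66% higher. Among the 592 genes at least as bright as the dimmest subunit, 13.9% were called lower. All 8 differences were below 0, as were 48.2% of all genes, and the median of the 8 was -0.25 on the log2 scale against 0.01 for all genes.

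Cct8, which encodes the theta subunit, changed most. It read 12.07, 12.17 and 12.18 (log2 signal) in Control and 11.43, 11.76 and 11.93 in Ring1b_KD. Every Ring1b_KD array was below every Control array, and Ring1b_KD array 1 was the lowest. The difference was -0.43 (SE 0.102, 95% interval -0.65 to -0.21; limma adjusted p = 0.0160).

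Cct5, the epsilon subunit, read 13.40, 13.35 and 13.45 in Control and 13.03, 13.03 and 13.22 in Ring1b_KD. The groups did not overlap, with Ring1b_KD array 3 the nearest to Control. The difference was -0.30 (SE 0.0726, 95% interval -0.46 to -0.15; limma adjusted p = 0.0169).

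Cct2, the beta subunit, read 13.25, 13.31 and 13.35 in Control and 12.91, 13.01 and 13.14 in Ring1b_KD. Again the groups did not overlap and Ring1b_KD array 3 was the highest of its group. The difference was -0.29 (SE 0.0657, 95% interval -0.43 to -0.14; limma adjusted p = 0.0138).

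Cct6a and Cct7, the zeta and eta subunits, had groups that did not overlap but missed the threshold. Cct6a read 12.45, 12.54 and 12.54 in Control and 12.25, 12.18 and 12.42 in Ring1b_KD, a difference of -0.23 (95% interval -0.39 to -0.07; limma adjusted p = 0.0648). Cct7 read 12.48, 12.44 and 12.59 in Control and 12.20, 12.14 and 12.36 in Ring1b_KD, a difference of -0.27 (95% interval -0.48 to -0.07; limma adjusted p = 0.0843). With these 2, 5 of the 8 genes had all Ring1b_KD arrays below all Control arrays, as did 16.6% of all genes.

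Tcp1, Cct3 and Cct4 had overlapping arrays. Tcp1, the alpha subunit, read 13.07, 13.18 and 13.21 in Control and 12.90, 12.95 and 13.14 in Ring1b_KD, and the difference of -0.15 had a 95% interval from -0.31 to 0.01 (limma adjusted p = 0.211). Cct4, the delta subunit, read 12.92, 12.94 and 13.02 in Control and 12.90, 12.77 and 12.96 in Ring1b_KD, and its difference of -0.08 had an interval from -0.24 to 0.08 (limma adjusted p = 0.530). Cct3, the gamma subunit, read 13.19, 13.25 and 13.28 in Control and 13.25, 13.09 and 13.34 in Ring1b_KD. Its difference of -0.02 had an interval from -0.19 to 0.16 (limma adjusted p = 0.917), and its sign turned where the mean of its probe sets was used (0.03). The intervals thus reach down to -0.31 for Tcp1, -0.24 for Cct4 and -0.19 for Cct3, and a missed threshold does not show that these transcripts stood at the Control level.

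**Figure D2:**
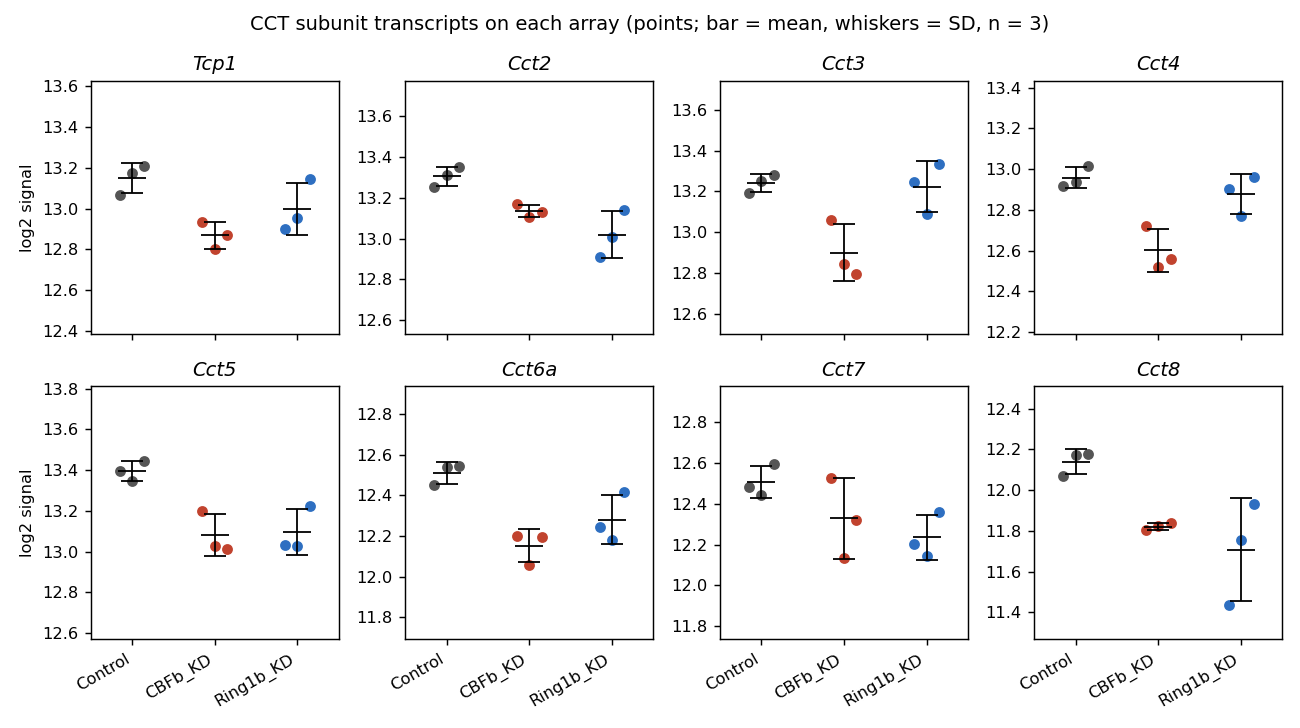
Log2 signal of the 8 subunit genes on each of the 9 arrays, with the group mean as a bar; every panel spans the same number of log2 units on an axis that does not start at 0. The Control mean is the highest in all 8 panels, and for Cct3 and Cct4 the Ring1b_KD points overlap those of Control while the CBFb_KD points lie below both.

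The calls in Ring1b_KD rested on few arrays. Leaving out Control array 3 left 0 of the 8 called (4 at an unadjusted limma p under 0.05), leaving out Control array 2 left 1 (Cct5), and leaving out Control array 1 or Ring1b_KD array 1 or 2 left 2. Cct2 and Cct8 lost their calls without Control array 2 or 3, with adjusted p from 0.0558 to 0.0659, and Cct5 lost its call without Control array 1 or 3 or Ring1b_KD array 1 or 2, with adjusted p from 0.0530 to 0.0758. On the values as deposited, 5 were called, with Cct6a (adjusted p = 0.0229) and Cct7 (0.0211) added, and centring the arrays on their medians called 6, with Tcp1 (0.0425) added as well. These scalings also moved the calls over all genes, from 1196 lower and 1029 higher to 1709 and 882 as deposited and to 2543 and 352 with median centring. Averaging each gene's probe sets, which takes in a Cct8 probe set near the floor, left Cct8 not called (-0.24, adjusted p = 0.103) and called Cct7 (0.0325).

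Within each group 1 array was the highest for most subunits. Ring1b_KD array 3 was the highest of its group for 8 of 8 subunits and for 32.4% of all genes, Control array 3 for 8 of 8 and 33.8%, and CBFb_KD array 1 for 7 of 8 and 45.5%. The lowest array was more divided: it was Ring1b_KD array 2 for 5 subunits and array 1 for 3, Control array 1 for 6, and CBFb_KD array 2 for 5. The SD over the Ring1b_KD arrays was above that over Control in 8 of 8 subunits, and in 61.5% of all genes. The subunits' median SD was 0.0529 over the Control arrays, 0.0930 over CBFb_KD and 0.118 over Ring1b_KD; for all genes these were 0.0801, 0.0955 and 0.103.

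In CBFb_KD, from which the family was chosen, all 8 subunits were lower than in Control, by 0.17 to 0.36 on the log2 scale, or 11.1% to 22.0% of the linear signal, where 53.9% of all genes were below Control. Cct6a read 12.20, 12.06 and 12.20 and was 0.36 below its Control mean of 12.51 ± 0.05 (SD, n = 3). Cct4 read 12.72, 12.52 and 12.56 and was likewise 0.36 below its Control mean of 12.96 ± 0.05. Cct3 read 13.06, 12.85 and 12.80, a difference of -0.34 from 13.24 ± 0.04. These 3 had the greatest decreases of the family, and the decreases in Cct8, Cct5 and Tcp1 were close behind.

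Cct8 read 11.80, 11.82 and 11.84 in CBFb_KD, -0.32 from its Control mean of 12.14 ± 0.06. Cct5 read 13.20, 13.03 and 13.01, -0.32 from 13.40 ± 0.05. Tcp1 read 12.94, 12.80 and 12.87, -0.28 from 13.15 ± 0.07. These genes did not overlap with Control, and neither did Cct2, at 13.17, 13.11 and 13.13 against a Control mean of 13.31 ± 0.05, a difference of -0.17. Cct7 alone of the 8 overlapped: it read 12.53, 12.13 and 12.32 against 12.51 ± 0.08, a difference of -0.18, with CBFb_KD array 1 inside the Control range. CBFb_KD arrays lay below all Control arrays for 7 of the 8, and for 16.9% of all genes.

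Across all genes 7.6% were called lower in CBFb_KD, and 5 of the 8 subunits were (Tcp1, Cct3, Cct4, Cct5 and Cct6a); nothing can be read from that count, since the comparison chose the members. It was 2 without Control array 3 and 3 without CBFb_KD array 3. The median of the 8 was -0.32, with -0.01 for all genes, and 19.8% of the 592 equally bright genes were called lower. Beside these decreases, 4 of 11 megakaryocyte markers (Itga2b, Gp5, Gp9 and Ppbp) and 3 of 6 erythroid markers (Epor, Alas2 and Epb42) were called higher in CBFb_KD and 0 lower. Of all genes, 7.78% were called higher there. In the same comparison 22 of 24 genes of cycling cells were called lower. The part of these markers and cycling cell genes in the result was not tested. With the replicate number as a block, Cct8 was called as well (adjusted p = 0.0187).

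**Figure D3:**
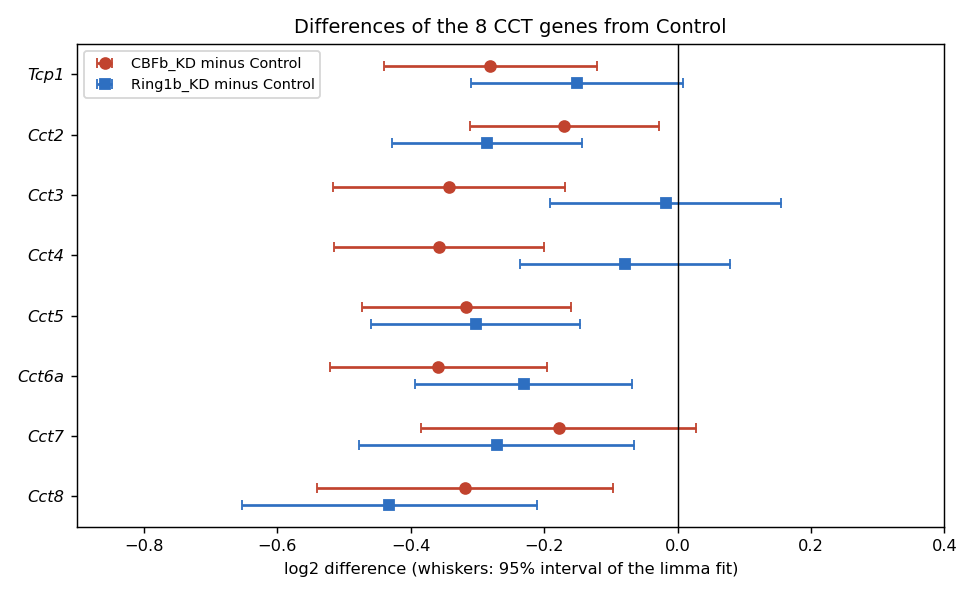
Log2 difference from Control of each subunit gene in CBFb_KD and in Ring1b_KD, with 95% intervals from the limma fit; the vertical line marks 0 and both comparisons share the Control arrays. Cct3 and Cct4 lie near 0 in Ring1b_KD and at -0.34 and -0.36 in CBFb_KD, whereas Cct5 lies at -0.32 and -0.30.

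The knockdowns were also set against each other. This comparison shares the CBFb_KD arrays with the one that chose the family and is likewise a description. In it, 2 of the 8 genes, Cct3 and Cct4, were called lower in CBFb_KD, where 9.31% of all genes were. Cct3 was 0.32 lower (95% interval of the difference -0.50 to -0.15) and Cct4 0.28 lower (-0.44 to -0.12), and for each every CBFb_KD array was below every Ring1b_KD array, as it was for 17.6% of all genes. For Cct5 the difference was -0.01, with an interval from -0.17 to 0.14, and its sign turned on the values as deposited (0.02) and with median centring (0.10). Tcp1 and Cct6a were each 0.13 lower in CBFb_KD, with intervals from -0.29 to 0.03 for both. For Cct2, Cct8 and Cct7 the CBFb_KD mean was the higher, by 0.12 (-0.03 to 0.26), 0.11 (-0.11 to 0.33) and 0.09 (-0.11 to 0.30).

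The order of the 3 group means thus differed between subunits. Control had the highest mean for all 8. Ring1b_KD was second for Tcp1, Cct3, Cct4, Cct5 and Cct6a, and CBFb_KD second for Cct2, Cct7 and Cct8, but the knockdowns' arrays overlapped for all but Cct3 and Cct4. The call for Cct3 was lost without CBFb_KD array 3 or Ring1b_KD array 3 (adjusted p = 0.0651 and 0.0528) and that for Cct4 without CBFb_KD array 2 or 3 or Ring1b_KD array 3 (0.0635 to 0.0692). Without CBFb_KD array 3, or without Ring1b_KD array 3, 0 of the 8 were called (2 and 4 at an unadjusted limma p under 0.05). Centring arrays on their medians left neither called (0.119 and 0.279) and called Cct2 higher in CBFb_KD instead, and the values as deposited left Cct3 called and Cct4 at 0.0521.

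The 25 probe sets give further measurements of the same transcripts. They are not independent, since those of a gene read the same RNA, and the suffixes _x_at and _s_at mark probe sets whose probes can also match other transcripts, such as pseudogenes of the subunits. Cct3 and Cct4 have 7 probe sets each, Cct2 has 3, Cct6a, Cct7 and Cct8 have 2 each, and Tcp1 and Cct5 have 1 each.

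In Ring1b_KD, 5 of the 25 probe sets were called lower and 0 higher, where 4.71% of all probe sets were called lower and 3.77% higher. Those called were 1433535_x_at and 1416037_a_at of Cct2, 1417258_at of Cct5, 1415817_s_at of Cct7 and 1415785_a_at of Cct8. Cct2 had 3 probe sets at -0.38 to -0.21, all with arrays below Control, and the Cct7 pair, at -0.41 and -0.27, both had arrays below Control. By contrast 0 of the 7 probe sets of Cct3 and 0 of the 7 of Cct4 were called or had arrays below Control. Those of Cct3 ran from -0.15 to 0.16 and those of Cct4 from -0.31 to 0.12. In all, 9 of the 25 had arrays below Control, against 15.3% of all probe sets, and 17 had a difference below 0, against 48.5%. Without Control array 3, 0 probe sets were called (9 at an unadjusted limma p under 0.05), and without Control array 2 or Ring1b_KD array 2, 1 was.

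Set against Ring1b_KD, 9 of the 25 probe sets were called lower in CBFb_KD, where 6.32% of all were, and these were 4 of Cct3 and 5 of Cct4. All 7 of Cct3 (-0.42 to -0.10) and all 7 of Cct4 (-0.63 to -0.24) were below 0. The arrays of 12 probe sets did not overlap, against 15.4% of all: 5 of Cct3, 6 of Cct4 and 1 of Cct6a. Leaving out the _x_at and _s_at probe sets before the fit left 4 called. In CBFb_KD against Control, all 25 differences were below 0, from -0.57 to -0.05, as were 54% of all probe sets. In that comparison, which chose the family, 12 were called lower where 4.75% of all probe sets were, and the arrays of 21 did not overlap, where 14.5% of all did not. The count was 5 without Control array 3, 6 without CBFb_KD array 2, 7 without CBFb_KD array 3 and 7 without the _x_at and _s_at probe sets. The smallest difference belonged to 1436973_at of Cct8, which stood at 4.17 in Control, at the 6.45th percentile of all probe sets, and so near the floor that it could show little.

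**Figure D4:**
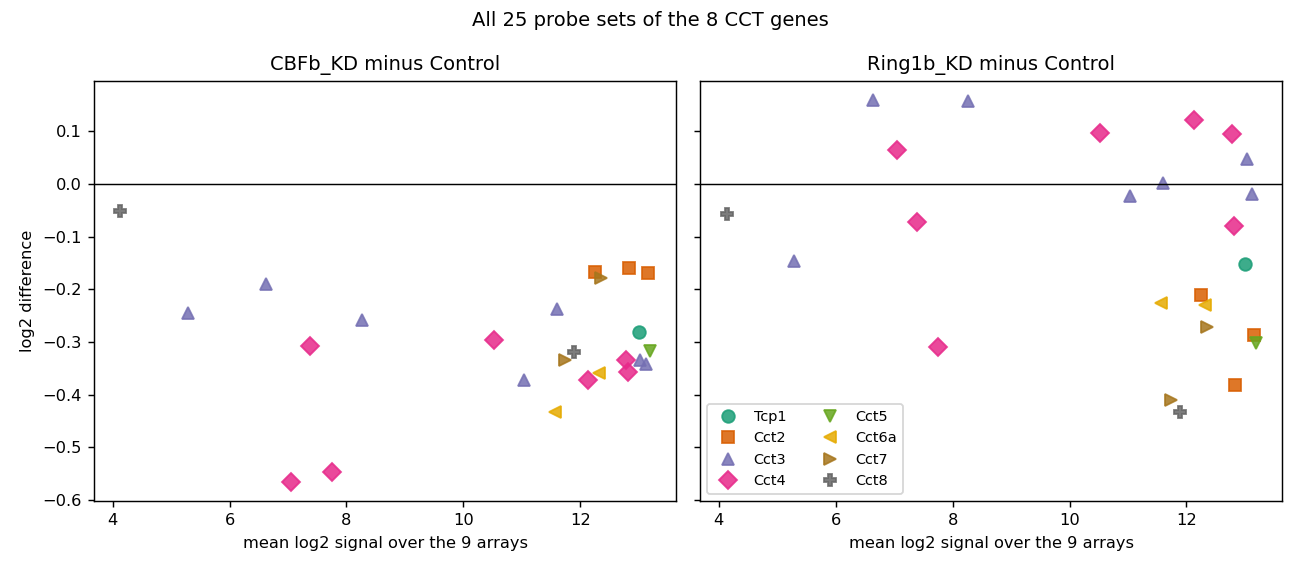
Log2 difference from Control for each of the 25 probe sets (vertical axis) against its mean log2 signal over the 9 arrays (horizontal axis), in CBFb_KD (left) and Ring1b_KD (right); each point is 1 probe set and its shape gives the gene. Probe sets of Cct3 and Cct4 scatter around 0 in Ring1b_KD and lie below 0 in CBFb_KD.

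The partners that serve the chaperonin were read from 3 lists, beside which 15.4% of all genes were called in either direction in CBFb_KD and 12.2% in Ring1b_KD. The lists differ in size and were not tested as sets. Prefoldin and prefoldin-like genes, 9 measured of 9, had 0 called in CBFb_KD (4 at an unadjusted limma p under 0.05), with a median of -0.08. That 0 became 3 with the replicate number as a block, with the other knockdown left out of the fit and without Ring1b_KD array 1, became 2 without Ring1b_KD array 3, and became 1 on the values as deposited, with median centring, with the dimmest genes left out and without Ring1b_KD array 2. In Ring1b_KD, Pfdn2 and Pfdn4 fell and Pfdn5 rose, with a median of 0.02. Pfdn4, a prefoldin beta subunit, read 10.39, 10.56 and 10.66 in Control and 9.40, 9.21 and 9.26 in Ring1b_KD, and the groups were far apart. Its difference of -1.25 (limma adjusted p = 5.08e-06) compares with -0.16 (adjusted p = 0.287) in CBFb_KD, and the knockdowns differed directly (adjusted p = 6.22e-06). The change in Pfdn2, of -0.41 (adjusted p = 0.0266), lost its call without Ring1b_KD array 1 or any 1 Control array, and that in Pfdn5, of 0.39 (adjusted p = 0.0343), lost it on the values as deposited (0.115), with median centring (0.315), with probe sets averaged (0.208) and without Ring1b_KD array 1 or 2 or any 1 Control array. The count of 3 then became 1 without Ring1b_KD array 1 or any 1 Control array, and 2 without Ring1b_KD array 2.

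Of the phosducin-like genes and the testis-type paralog Cct6b, 4 measured of 4, Pdcl3 fell by 0.37 in CBFb_KD (limma adjusted p = 0.0175) and the other 3 were not called. In Ring1b_KD 0 were called (1 at an unadjusted limma p under 0.05), and Pdcl3 differed by -0.30 (adjusted p = 0.0564). The Pdcl3 call was lost without CBFb_KD array 2 or 3 or Control array 2 or 3, and in Ring1b_KD it was gained on the values as deposited. In all, the Ring1b_KD count of this list became 1 in 5 of the alternatives, with arrays left out among them. Tubulin folding cofactors take tubulin on from CCT to assemble the alpha-beta dimer. Of 6 measured, Tbce alone was called, up by 0.30 in CBFb_KD (adjusted p = 0.0356) and 0.29 in Ring1b_KD (adjusted p = 0.0480), and the count fell to 0 without any 1 Control array, without CBFb_KD array 2 or 3 in CBFb_KD, and without any 1 Ring1b_KD array or CBFb_KD array 3 in Ring1b_KD. On the values as deposited Tbce was not called in Ring1b_KD (0.0663), though 2 others of the list, Tbcb and Arl2, were lower, and with median centring Tbce was at 0.255 and 3 others were lower.

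Transcripts of the clients mostly did not pass the test. Of 17 actin and tubulin genes measured (Tuba1b and Tuba1c were not analysed here), 4 fell and 1 rose in CBFb_KD, with a median of -0.03, and 1 fell in Ring1b_KD, with a median of -0.00. The main cytoplasmic actins were not called in either knockdown. Actb, beta actin, was at 15.19 ± 0.05 (SD, n = 3) in the Control arrays, 15.17 ± 0.03 in those of CBFb_KD and 15.19 ± 0.02 in those of Ring1b_KD, near the top of the array's range. Averaging its probe sets gave a rise of 0.44 in Ring1b_KD (adjusted p = 0.00281), so its direction depends on the probe sets used. Actg1, gamma actin, differed by 0.12 and 0.17 (adjusted p = 0.341 and 0.145), and Tubb1, the platelet beta tubulin, by 0.16 and 0.04 (0.325 and 0.841), in CBFb_KD and Ring1b_KD.

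Tuba8 fell by 0.81 (limma adjusted p = 0.00219) and Tubb4b by 0.37 (0.00624) in CBFb_KD, together with Tubb5 and the centrosomal gamma tubulin Tubg1, and the neuronal-type beta tubulin Tubb3 rose by 0.59 (0.000836) from a low level. Tuba4a, an alpha tubulin abundant in platelets, fell by 0.28 in Ring1b_KD (0.0344) and differed by 0.08 in CBFb_KD (0.596). With probe sets averaged, Tubb4b was at -0.17 and not called (0.124). The 5 calls in CBFb_KD became 3 without CBFb_KD array 2 or Control array 3. The Tuba4a call in Ring1b_KD was lost when its probe sets were averaged (adjusted p = 0.435), without a variance trend (0.0649), and without Ring1b_KD array 2 or 3 or Control array 2 or 3, and the count of 1 became 3 on the values as deposited and 4 with median centring.

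Among 12 WD40 and other clients, 2 rose and 2 fell in CBFb_KD, and 2 rose in Ring1b_KD. Rptor, the raptor subunit of mTORC1, rose by 0.52 (limma adjusted p = 0.000789) and 0.65 (0.000388). Mlst8, the other WD40 subunit of that complex, rose by 0.31 in Ring1b_KD (0.0242). Gnb4, a G protein beta subunit, rose by 0.51 in CBFb_KD (0.000579), where Cdc20, which activates the anaphase-promoting complex, fell by 0.38 (0.00917) with the cyclin Ccne1. Without Control array 3 the 4 calls in CBFb_KD became 2. The 2 calls in Ring1b_KD became 1 without Ring1b_KD array 2 or 3, and without Control array 2 or 3. With probe sets averaged, Rptor was called in neither knockdown, at 0.33 (0.104) and 0.41 (0.0533). Mlst8 lost its call there too (0.0679), as it did on the values as deposited (0.0613) and with median centring, which left it at 0.14 (0.259).

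Other chaperone systems were measured from lists of the same kind. In the cytosolic HSP70 and HSP90 machinery, 32 measured of 34, 9 fell and 3 rose in CBFb_KD (median -0.07), and 9 fell and 1 rose in Ring1b_KD (median -0.02). Hsph1, the HSP110 exchange factor, fell by 0.61 in CBFb_KD (limma adjusted p = 0.00423) and 0.73 in Ring1b_KD (0.00248). Ahsa1, which stimulates the HSP90 ATPase, fell by 0.31 (0.0346) and 0.43 (0.00805). Stip1, which bridges HSP70 and HSP90, fell by 0.55 in Ring1b_KD (0.00627) and differed by -0.32 in CBFb_KD (0.0707). In contrast to these, the J-domain gene Dnajb4 rose by 0.81 (0.000394) and 0.40 (0.0344), and Dnaja4 by 0.59 (0.000970) and the myosin chaperone gene Unc45a by 0.81 (0.000861) in CBFb_KD.

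The 10 calls in Ring1b_KD became 4 and 5 without Ring1b_KD array 1 and 2, 6, 3 and 5 without Control array 1, 2 and 3, and 5 with probe sets averaged per gene. Averaging left Ahsa1 at -0.21 (adjusted p = 0.128) and Hspa14 at -0.19 (0.169) in Ring1b_KD, and Dnajb4 was not called there either. In CBFb_KD the 12 calls became 8 without Control array 2 or 3. The heat shock factor genes Hsf2 and Hsf4 were not called in either knockdown, with 0 at an unadjusted limma p under 0.05, and Hsf1 was not analysed here. Of 6 nascent chain and ribosome-bound factors, Dnajc2 fell by 0.61 (limma adjusted p = 0.00321) and 0.55 (0.00956) and Hspa14 by 0.42 (0.00685) and 0.37 (0.0215) in CBFb_KD and Ring1b_KD, and both also stand on the HSP70 list. Naa15, an N-terminal acetyltransferase subunit, fell by 0.47 in CBFb_KD (0.00551). The 2 calls in Ring1b_KD became 0 without Control array 2, and 1 without Ring1b_KD array 1 or 2, without Control array 1 or 3, or with probe sets averaged per gene.

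The mitochondrial chaperonin, the organelle's own ring chaperone, had 3 of 6 genes lower in CBFb_KD and 1 of 6 in Ring1b_KD. Hspd1, which encodes the HSP60 ring, fell by 0.38 (limma adjusted p = 0.00822) and 0.32 (0.0289). Its lid, Hspe1, fell by 0.30 in CBFb_KD (0.0221) and differed by -0.21 in Ring1b_KD (0.109). Grpel1, the nucleotide exchange factor of mitochondrial HSP70, fell by 1.10 in CBFb_KD (1.04e-05) and differed by 0.00 in Ring1b_KD (0.981), and the knockdowns differed directly (adjusted p = 6.31e-06). The 3 calls in CBFb_KD became 2 without CBFb_KD array 2 or 3, without Control array 3, with probe sets averaged per gene and without the _x_at and _s_at probe sets. The Hspd1 call in Ring1b_KD was lost without Ring1b_KD array 1 or 2 or any 1 Control array, and 3 were called there on the values as deposited.

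Chaperones of the endoplasmic reticulum differed between the knockdowns, with CBFb_KD above Ring1b_KD for 7 of 15 genes and below it for 1, where 10.1% of all genes were called higher and 9.31% lower. These 8 calls became 3 without CBFb_KD array 3 or with Control left out of the fit, and 5 without Ring1b_KD array 1 or 3. Against Control, 8 of 15 fell in Ring1b_KD and 1 rose, with a median of -0.27, and in CBFb_KD 1 fell and 2 rose, with a median of -0.03. Hspa5, the lumenal HSP70, read 12.94, 13.01 and 13.11 in Control, 12.49, 12.67 and 12.46 in Ring1b_KD and had a mean of 13.38 ± 0.08 (SD, n = 3) in CBFb_KD. It fell by 0.48 in Ring1b_KD (limma adjusted p = 0.00133), rose by 0.36 in CBFb_KD (0.00451) and differed between the knockdowns (8.89e-06). The mean of its probe sets passed in neither comparison with Control, at -0.19 in Ring1b_KD (0.141) and 0.23 in CBFb_KD (0.0608). Dnajb11 and the disulfide isomerase gene Pdia3 fell by 0.62 (0.00207) and 0.49 (0.00209) in Ring1b_KD, where the averaged probe sets of Pdia3 were at -0.24 and not called (0.0536). Dnajb9 rose in both, by 0.96 (0.000572) in CBFb_KD and 0.53 (0.0287) in Ring1b_KD. The 9 calls in Ring1b_KD became 6 without Control array 3. The 3 in CBFb_KD became 2 without CBFb_KD array 2 or 3 or Control array 1 or 3, and on the values as deposited.

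Genes of cycling cells moved beside the subunits in CBFb_KD. There 22 of 24 fell and 0 rose, with a median of -0.53, and in Ring1b_KD 2 fell (Mki67 and Mcm4) and 0 rose, with a median of -0.17. Mki67, the proliferation antigen, fell by 0.73 (limma adjusted p = 0.000367) and 0.45 (0.0114), the replicative helicase gene Mcm4 by 0.57 (0.000492) and 0.30 (0.0324). Mcm7 fell by 0.70 in CBFb_KD (0.000181) and differed by -0.16 in Ring1b_KD (0.251). In Ring1b_KD the count depended on the scaling: 10 on the values as deposited and 13 with median centring, 5 with the dimmest genes left out, and 0 without Control array 3 (the count at an unadjusted p under 0.05 over all arrays was 11). It was 1 without Ring1b_KD array 1 or 2 or Control array 1 or 2, and 4 without CBFb_KD array 1 or 2. Their part in the levels of the subunits was not tested.

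**Figure D5:**
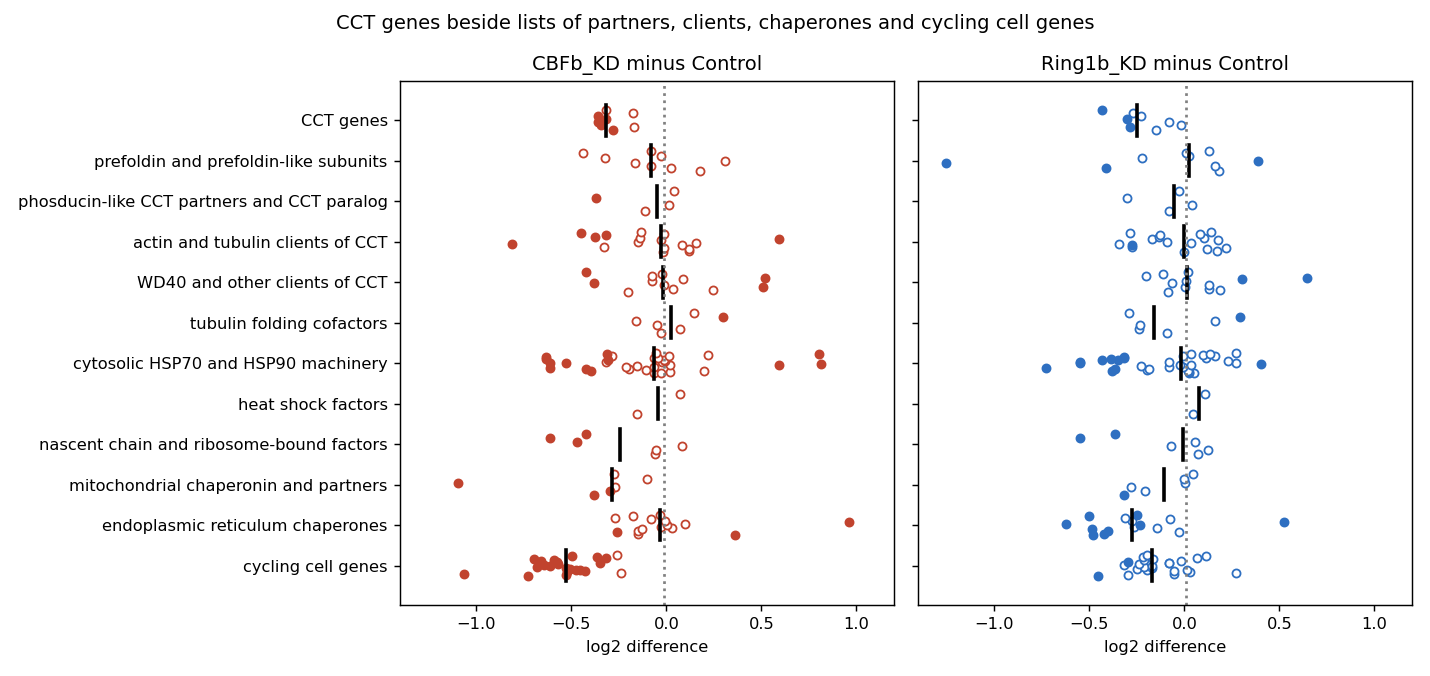
Log2 difference from Control of every measured gene on each list, in CBFb_KD (left) and Ring1b_KD (right); filled points passed the test, open points did not, black bars are list medians and the dotted line is the median of all genes. The cycling genes lie to the left in CBFb_KD, and the chaperones of the endoplasmic reticulum in Ring1b_KD.

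The genes whose pattern over the 9 arrays was most like the mean centred log2 signal of the 8 subunits were Rcc1l, at a Pearson r of 0.994, Prmt1 (0.994), Pprc1 (0.993), Clspn (0.991) and Gmnn (0.987). Prmt1 encodes the main asymmetric arginine methyltransferase, Pprc1 a coactivator related to PGC-1, Clspn the replication checkpoint adaptor claspin and Gmnn the licensing inhibitor geminin. The correlations are a description over 9 arrays that fall into 3 groups, and are not tests. Rcc1l, for instance, stood at 8.64 ± 0.10 (SD, n = 3) over the Control arrays, 8.11 ± 0.17 over those of CBFb_KD and 8.23 ± 0.21 over those of Ring1b_KD, with array 3 the highest in Control and in Ring1b_KD, as for the subunits. The lowest correlations were those of A430035B10Rik (-0.985), Mfsd2b (-0.975) and Trappc2 (-0.973). The subunits themselves, each of which enters that mean, correlated with it at 0.967 for Cct5 and Cct6a, 0.963 for Tcp1, between 0.811 and 0.822 for Cct2, Cct4, Cct7 and Cct8, and 0.739 for Cct3. Cct3 was thus the subunit farthest from the common pattern.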

How the data were processed

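Each of 9 RNA samples was hybridised to its own one-colour array of short oligonucleotides; per the labels' protocols it was primed with oligo-dT and labelled with biotin by in vitro transcription. The authors deposited 1 log2 value per probe set and array, 45101 of them, as judged from their range of 3.23 to 15.4. How they were summarised and normalised is not given in the sources used here. The number of arrays limits the precision.

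The deposited values were quantile normalized over all probe sets in limma 3.58.1 (R 4.3.3), and 64 control probe sets were dropped. The platform annotation gave 1 symbol to 34945 probe sets and several to 932, and 9160 were not listed and are unnamed here. A gene was read by the brightest of the probe sets that carry its symbol alone, which gave 18193 genes; a second fit used 45037 probe sets. Group means were fitted to all 9 arrays with lmFit and eBayes(trend = TRUE), and the two-sided p-values of a comparison were adjusted over all its features (Benjamini-Hochberg), with a call where the adjusted p was under 0.05. The fit was tested on simulated data with independent noise and with planted changes larger than those of the subunit genes. Percentages are of the linear signal, from the log2 difference.

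Deviations from the group means of same-numbered arrays correlated above 0.1 for all 3 pairs of CBFb_KD and Control arrays (0.200 to 0.377), and the numbers were taken to pair these groups, from the data and not the labels. Of the pairs of Ring1b_KD with Control and of CBFb_KD with Ring1b_KD, 1 of 3 each did, and the numbers were not taken to pair them. The main fit used no pairing in any comparison, and the replicate block alternative applied the numbers to every group. Alternatives were the values as deposited, median centring, probe sets averaged per gene, a filter on dim genes, other variance models, the 2 groups compared alone, a replicate block and each array left out. The set without _x_at and _s_at probe sets was added after seeing the data. The members and lists were chosen with earlier results of these data known. Named genes were the 8 members, the targeted genes, up to 3 called members of each list and knockdown by smallest adjusted p, Actb, Actg1 and Tubb1, and the 5 genes most and 3 least like the members over the 9 arrays. Other called genes were named only as members of a small count. Figures were drawn with matplotlib 3.10.9.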

Additional observations from a re-analysis of the deposited data

How the results depend on the processing

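The median difference of the 8 subunit genes stayed below 0 in each knockdown under every alternative tried; leaving out arrays gave -0.35 to -0.29 in CBFb_KD and -0.32 to -0.20 in Ring1b_KD, and median centring gave -0.41 in Ring1b_KD. Counts of calls were less stable. With each array left out in turn, 2 to 6 subunit genes, 5 to 14 of their probe sets, 1751 to 2995 of all genes and 40 to 57 of 131 genes on the pathway lists were called in CBFb_KD, against 5, 12, 2798 and 52 with all arrays. In Ring1b_KD they were 0 to 4, 0 to 7, 1139 to 2365 and 13 to 32, against 3, 5, 2225 and 29. Between the knockdowns they were 0 to 2, 6 to 10, 2377 to 3564 and 28 to 48, against 2, 9, 3536 and 52, and the subunit median ran from -0.11 to -0.00. The cause was not tested.

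On the values as deposited, Ring1b_KD had 5 subunit genes, 9 subunit probe sets and 45 list genes called, and 1 subunit gene was called between the knockdowns. With median centring these were 6, 9, 52 and 1, and the subunit median between the knockdowns turned to 0.0524. No scaling moved the median of all genes by as much as 0.1. Quantile normalization and median centring even out the array medians, so this says little about bright genes such as the subunits. Without the _x_at and _s_at probe sets, the subunit probe sets called were 7 for CBFb_KD, 3 for Ring1b_KD and 4 between them. Fitting only the groups compared left 34 list genes called between the knockdowns. With the replicate number as a block, 5 subunit genes were called in Ring1b_KD, with Cct6a (adjusted p = 0.0402) and Cct7 (0.0375) added. The numbers were not taken to pair Ring1b_KD with Control. In CBFb_KD the block added Cct8 and took the subunit probe sets called from 12 to 16. It took all genes called there from 2798 to 3142, genes on the pathway lists from 52 to 59 and mast cell markers from 1 to 2. Among the genes followed one by one in CBFb_KD, no other call changed with the block. These were the subunits, the targeted genes, Actb, Actg1, Tubb1 and the genes most and least like the subunits. Up to 3 called genes of each pathway list were followed as well. Other genes named here, such as Stip1, Tubb5 and those of prefoldin, were not followed singly in that comparison. In all, 8 of 9 arrays correlated best with an array of their own number, a hint from the data and not from the design.

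The sign turned in differences near 0. In Ring1b_KD, Cct3 was at 0.0258 with its probe sets averaged and 0.0467 without _x_at and _s_at probe sets, and ran from -0.0743 to 0.049 with arrays left out. Actb was there at 0.0283 as deposited and 0.44 with its probe sets averaged, and ran from -0.0206 to 0.0258 with arrays left out. Tubb1 ran there from -0.0022 to 0.0974 with arrays left out. In CBFb_KD, Actb was at 0.0032 with its probe sets averaged and ran from -0.0389 to 0.0075 with arrays left out. Between the knockdowns, Cct5 was at 0.0207 as deposited and 0.10 with median centring, and ran from -0.074 to 0.0509 with arrays left out. Cct6a was at 0.0042 with median centring. With arrays left out, Cct7 ran from -0.0075 to 0.19 and Cct8 from -0.0235 to 0.2258.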
